A study of Mus musculus with 6 samples.

Results

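The genes described here encode core parts and regulators of the spliceosome, taken as every gene whose symbol starts with Snrp, Sf3, Prpf, Lsm, Srsf or Hnrnp, pseudogenes left out. The rule uses names only, and it found 72 of the 22180 genes that the arrays name on a probe set of their own. Of these, 71 were bright enough to be tested, and only Srsf12 was not, with controls at 4.66, 4.52 and 4.40 and mutants at 4.34, 4.59 and 4.53 (log2 values, replicates in the order 1, 2, 3 here and below; genes with a mean under 4.84 were not tested). A further 5 genes, Hnrnpa1, Hnrnph3, Snrpa, Snrpf and Snrpn, lie only on probe sets that also carry other genes, and they were not analysed here. The prefix Lsm also takes in Lsmem1, the gene of a membrane protein that is no part of the splicing machinery.

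The cells were Ly6D- common lymphoid progenitors (CLPs), early lymphoid cells that were sorted from bone marrow. Mutant mice were OcnCre+;iDTR+/- and control mice OcnCre-;iDTR+/-, both 6 to 8 weeks old, and both groups received diphtheria toxin every day for 4 weeks. In the mutants, Cre under the osteocalcin promoter switches on a toxin receptor, so that the toxin is directed at osteocalcin-expressing bone cells. RNA of 3 control and 3 mutant samples was amplified as cDNA and measured on 1 Affymetrix array each. The labels do not say whether a sample was 1 mouse or a pool, and p-values here rest on the spread among these 6 samples alone, part of which may be technical.

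Splicing removes introns from newly made RNA. Small nuclear ribonucleoproteins, each a short RNA wrapped in a ring of Sm or Lsm proteins, recognise the intron ends, and the U2 particle with its SF3 proteins binds the branch point. The U4, U6 and U5 particles with their PRPF proteins then join and build the catalytic centre. SR proteins (Srsf genes) mostly promote the use of an exon and hnRNP proteins often repress it, and in lymphocytes both shape the forms of surface molecules such as CD45.

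The data touch the promoters of these genes only through their transcript levels. RefSeq promoter windows (build GRCm38.p6, 250 bases before to 50 after the annotated start, first window per gene) were found for 62 of the 72 genes. A set of 6 short motifs was searched on both strands. The ETS letters CCGGAAG occurred in 19 of the 62 windows (30.6%) and in 11.9% of 17492 windows of protein-coding genes. The GC box GGGCGG was in 43 (69.4%, against 46.3%), the CRE core TGACG in 28 (45.2%, against 23.8%), the CCAAT box CCAAT in 31 (against 39.0% of all windows), the E box CACGTG in 7 (11.3%, against 7.9%) and the TATA box TATAAA in 5 (8.06%, against 13.3%). By family, the windows numbered 7 for Snrp, 7 for Sf3, 11 for Prpf, 11 for Lsm, 10 for Srsf and 16 for Hnrnp, and in this order 4, 6, 3, 1, 3 and 2 of them held the ETS letters and 4, 0, 7, 0, 7 and 10 the CRE core. Differences between families were not tested on these few windows. A match is a description of the letters and not a binding site.

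The last 100 bases before the start are shown for the gene of lowest p in each family, for Lsm5 and Lsm8, which had the lowest values on 1 mutant array relative to the controls, and for the 2 genes of lowest p with the ETS letters in this stretch, Prpf4b and Srsf5. Capitals mark any of the 6 motifs on either strand. In Prpf39 a CRE core overlaps an E box, and in Srsf5 a GC box, ETS letters and a CRE core run into each other.
Snrpd2 (chr7:19149738-19149837, + strand): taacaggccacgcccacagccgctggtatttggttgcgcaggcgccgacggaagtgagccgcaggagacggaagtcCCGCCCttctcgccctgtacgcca
Sf3b1 (chr1:55027479-55027578, - strand): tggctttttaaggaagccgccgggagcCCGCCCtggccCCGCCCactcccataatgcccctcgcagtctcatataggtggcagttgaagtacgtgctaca
Prpf39 (chr12:65036234-65036333, + strand): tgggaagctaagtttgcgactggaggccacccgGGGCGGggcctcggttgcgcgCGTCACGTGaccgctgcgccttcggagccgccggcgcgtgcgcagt
Lsm14b (chr2:180024887-180024986, + strand): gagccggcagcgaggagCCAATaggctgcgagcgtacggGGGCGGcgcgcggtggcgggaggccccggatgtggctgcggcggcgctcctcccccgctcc
Srsf9 (chr5:115327077-115327176, + strand): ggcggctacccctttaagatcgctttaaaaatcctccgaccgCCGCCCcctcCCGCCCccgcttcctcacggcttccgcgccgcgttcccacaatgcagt
Hnrnpr (chr4:136310842-136310941, + strand): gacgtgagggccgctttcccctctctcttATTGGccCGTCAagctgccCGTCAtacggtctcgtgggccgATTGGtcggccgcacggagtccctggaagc
Lsm5 (chr6:56704700-56704799, - strand): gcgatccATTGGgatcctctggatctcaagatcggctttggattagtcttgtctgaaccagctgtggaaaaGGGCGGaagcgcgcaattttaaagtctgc
Lsm8 (chr6:18848535-18848634, + strand): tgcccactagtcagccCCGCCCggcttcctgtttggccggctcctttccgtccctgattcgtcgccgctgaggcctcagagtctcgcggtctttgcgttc
Prpf4b (chr13:34875429-34875528, + strand): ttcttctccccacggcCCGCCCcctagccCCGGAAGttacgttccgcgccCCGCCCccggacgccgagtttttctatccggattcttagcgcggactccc
Srsf5 (chr12:80945399-80945498, + strand): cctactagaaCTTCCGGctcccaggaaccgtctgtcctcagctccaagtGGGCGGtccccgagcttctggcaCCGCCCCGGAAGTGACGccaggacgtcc

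Mutant replicate 2 stood apart over the whole array: it correlated with the remaining arrays at 0.935 to 0.954, and those reached 0.973 to 0.989 with each other (all probe sets, as a description). Bright genes were lower on mutant replicates 2 and 3, so the medians of the families and lists are also given relative to genes of like brightness, while differences of single genes are not. Mean levels of CLP markers (6 of 8; Ly6a and Rag1 had no probe set of their own) were 8.86 to 8.99 in controls and 8.69 to 8.81 in mutants. Granulocyte and monocyte precursor markers (10 of 10) were bright in both groups, 9.37 to 10.18 and 9.33 to 10.35. B lineage markers (7 of 8) lay at 7.80 to 8.21 and 7.68 to 7.83, erythroid markers (5 of 9) at 6.01 to 6.71 and 6.27 to 6.75, T and NK markers (10 of 10) at 5.43 to 5.93 and 5.28 to 5.59, and bone stroma markers (7 of 8) at 4.75 to 4.85 and 4.69 to 4.93, close to the limit for testing although 1 label names the tissue as stromal cells. RMA values carry no detection call, so no marker can be said to be at 0. Markers of cycling cells (15 of 16) were at 9.13 to 9.36 in controls and 8.83 to 9.10 in mutants. Their mean level, like that of the CLP markers, was lower in every mutant sample than in any control. Relative to genes of like brightness, the median of the cycling markers was −0.11, 0.04 and 0.09 in controls and −0.12, 0.01 and −0.24 in mutants. That of the CLP markers was −0.004, 0.04 and −0.10 in controls and −0.18, 0.13 and −0.09 in mutants, so there the groups overlapped. The part of cycling in the difference of the splicing genes was not tested.

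Splicing genes as a whole had lower mean levels in mutant progenitors, but none passed the test. In such bulk samples, less RNA of a gene per cell and fewer cells that express it cannot be told apart. Mutant means were lower for 64 of the 71 genes. Differences (mutant minus control, log2) ran from −0.93 for Lsm5 to 0.24 for Hnrnpll around a median of −0.27. Over all 13308 genes tested 57.5% had a lower mutant mean and the median was −0.04. In limma with Benjamini-Hochberg adjustment over all genes, 0 splicing genes passed an adjusted p of 0.05, as did 0% of all genes, and adjusted p-values of splicing genes ran from 0.594 up to 0.995. At an unadjusted p under 0.05 there were 11 lower and 0 higher splicing genes, against 6.02% and 2.01% of all genes. All mutant values lay below all control values for 15 splicing genes, and for 0 the reverse held, where 9.99% and 5.4% of all genes did so. Without mutant replicate 2 the median was −0.11, 54 genes had a lower mutant mean and again 0 passed. After repeated quantile normalization, cyclic loess or removal of the brightness trend 44, 43 and 44 of the 71 had a lower mutant mean. With arrays weighted by their fit, which rests mostly on mutant replicate 3 among the mutants, 27 of the 71 splicing genes and 2960 of all 13308 genes passed. Calls among genes of like brightness were not counted for this setting.

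Splicing genes are bright, and other bright genes had lower mutant means too. Their median level was 8.56 against 6.28 over all tested genes, and 59 of the 71 lay in the brightest 5 of 20 equal groups by mean level. In those 5 groups 84.1% of 3327 genes had a lower mutant mean, 16.9% had mutant values all below the controls, 10.5% were lower at an unadjusted p under 0.05, and the median difference was −0.20. When each gene was set against the median of its own brightness group, the median of the splicing genes was −0.07, and 43 of 71 were below their group. Array by array, this relative median was −0.02, 0.01 and 0.02 for controls and −0.05, −0.15 and −0.03 for mutants. Before the brightness groups were taken off, the same medians were −0.04, 0.02 and 0.03 in controls and −0.04, −0.51 and −0.20 in mutants, so mutant replicate 1 sat beside control replicate 1. Both arrays also had the highest mean levels of granulocyte and monocyte precursor markers (10.35 and 10.18) and of erythroid markers (6.75 and 6.71). The part of such cells in the values of the splicing genes was not tested.

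**Figure D1:**
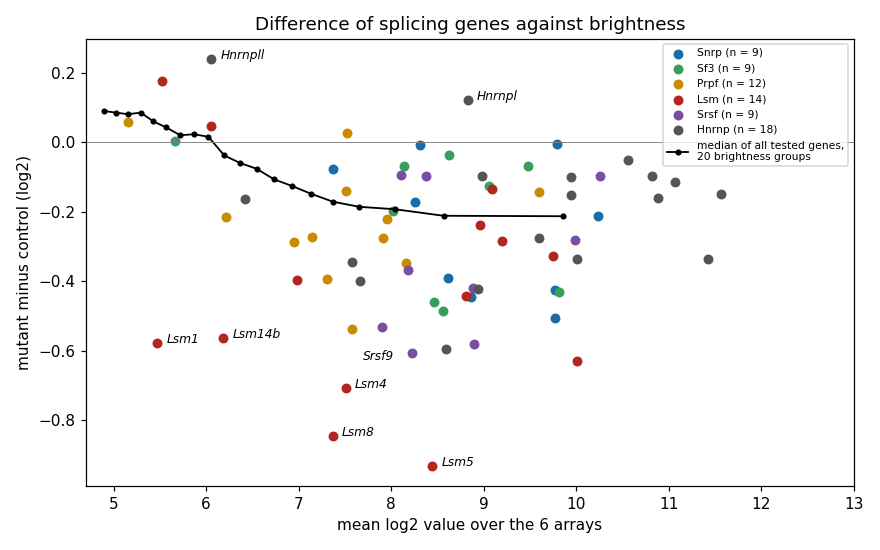
Mutant minus control difference (log2, vertical axis) against the mean log2 value over the 6 arrays (horizontal axis) for the 71 tested splicing genes, coloured by symbol family; the black line joins the medians of all tested genes in 20 brightness groups. Splicing genes crowd at the bright end, where the line lies at −0.21, and Lsm5, Lsm8, Lsm4, Lsm1 and Lsm14b lie farthest under it.

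The families differed in how far they lay from genes of like brightness. The Lsm family had the lowest median, −0.42, and was at −0.25 relative to like brightness, with 11 of 14 genes below their group. Srsf genes were at −0.37 and −0.17 (6 of 9 below) and Prpf genes at −0.25 and −0.10 (9 of 12). Snrp genes were at −0.21 and 0.00 (4 of 9), Sf3 genes at −0.12 and −0.00 (5 of 9), and Hnrnp genes at −0.16 and 0.06 (8 of 18). The Hnrnp median turned to 0.03, 0.08 and 0.05 after quantile normalization, cyclic loess and removal of the brightness trend, and the Snrp median to 0.02 after loess. Differences between families were not tested. Without mutant replicate 2 the Lsm median was −0.17 (−0.10 relative to like brightness), Srsf was at −0.10 (0.00), Prpf at −0.15 (−0.06), Snrp at −0.01 (0.09), Sf3 at −0.14 (−0.04) and Hnrnp at −0.07 (0.02).

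**Figure D2:**
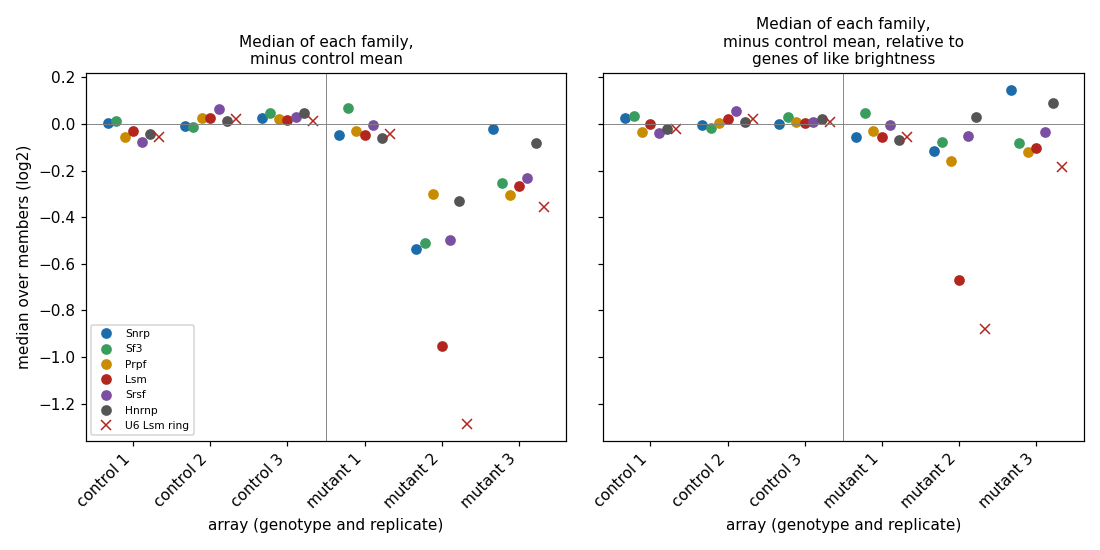
Median over the tested genes of each family, and of the 7 genes of the U6 Lsm ring (crosses), on each of the 6 arrays, as log2 value minus the control mean (left) and relative to tested genes of like brightness (right). On mutant replicate 2 the Lsm ring is at −1.29 on the left and −0.88 on the right, whereas the Snrp, Sf3, Prpf, Srsf and Hnrnp medians lie between −0.16 and 0.03 on the right.

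Most splicing genes had their lowest value on mutant replicate 2. Of the 71 splicing genes 51 did so and 14 were lowest on mutant replicate 3, against 59.8% and 26.3% of genes in the brightest 5 groups. On mutant replicate 2, 37 splicing genes were more than 0.5 below their control mean (52.1%, against 38.9% of genes in those bright groups), and 16 were more than 1 below. On mutant replicate 3 these counts were 9 and 1, and on mutant replicate 1 they were 1 and 0, where 12.7% and 1.41% of splicing genes were more than 0.5 below, against 12.7% and 1.08% of bright genes. The genes also spread widely on mutant replicate 2, from −2.25 for Lsm5 to 0.42 for Hnrnpl and Prpf19. Bright genes spread widely there too: the interquartile range was 0.72 for splicing genes and 0.57 for genes in those bright groups.

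**Figure D3:**
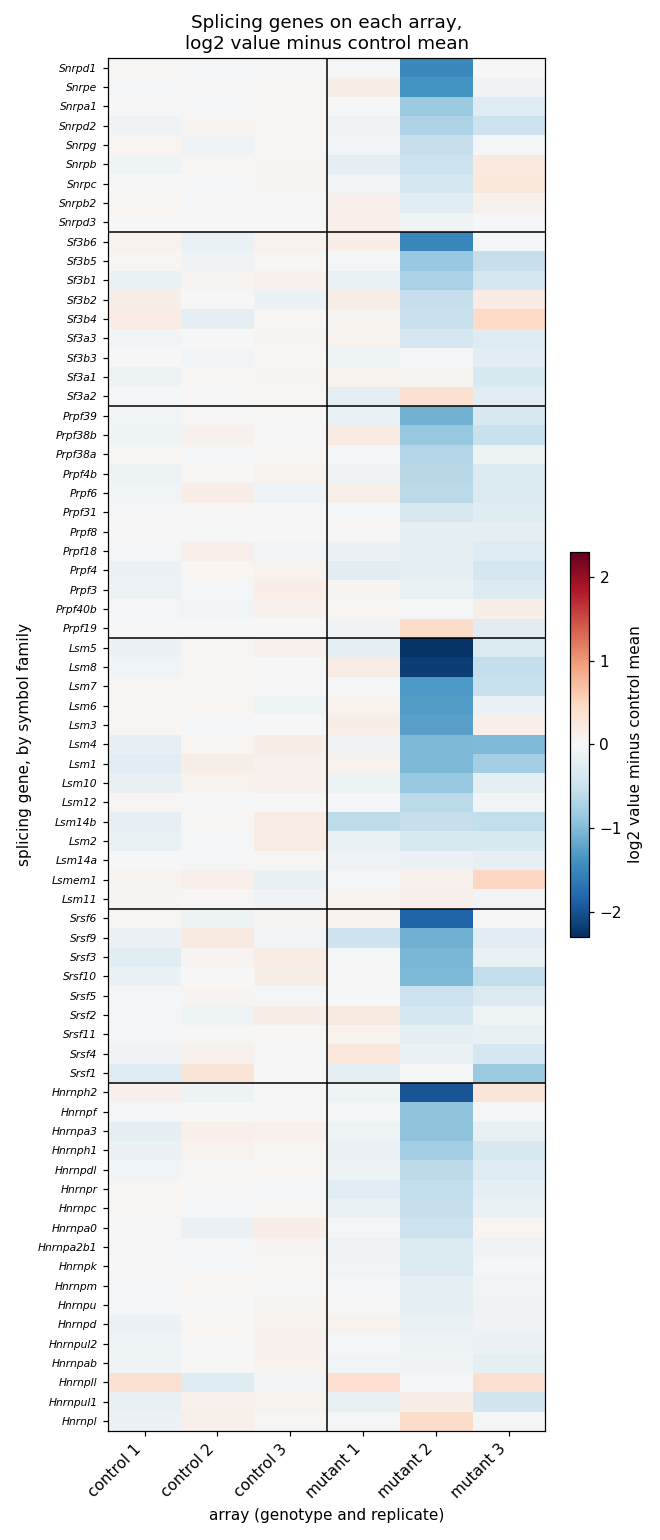
Each row is 1 of the 71 tested splicing genes, ordered by family and by its value on mutant replicate 2, and each column is 1 array; colour is the log2 value minus the gene's control mean. Blue collects in the column of mutant replicate 2, deepest in Lsm5, Lsm8, Hnrnph2 and Srsf6, while the column of mutant replicate 1 stays pale.

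The Sm ring comes first in assembly, since Sm proteins are loaded on the U1, U2, U4 and U5 RNAs. All 6 tested ring genes had a lower mutant mean (median −0.32, and −0.11 relative to like brightness), and 0 of them separated the groups. Snrpd2, a subunit that pairs with Snrpd1, had control values of 9.89, 10.04 and 10.02 and mutant values of 9.90, 9.28 and 9.49. Mutant replicate 1 lay among the controls, and the difference was −0.43 ± 0.17 (SE from the fit, as for every difference below; adjusted p = 0.594 in limma) and −0.29 without mutant replicate 2. Snrpd1 was at 10.05, 9.99 and 10.01 in controls and at 9.97, 8.53 and 10.03 in mutants, low on a single array. Its difference of −0.51 ± 0.36 was −0.02 without mutant replicate 2. A dimmer probe set of Snrpd1 was low on mutant replicates 2 and 3, at 9.47, 9.41 and 9.43 against 9.46, 8.75 and 8.99. Snrpe was low on mutant replicate 2 alone, at 9.05, 9.11 and 9.11 against 9.22, 7.72 and 9.0, and its difference went from −0.45 ± 0.35 to 0.02 without that array.

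The remaining ring genes were closer between the groups. Snrpd3 had 9.80, 9.79 and 9.80 in controls and 9.91, 9.72 and 9.75 in mutants (difference −0.01 ± 0.11, and 0.03 without mutant replicate 2). Snrpg was the brightest of the family, with a control mean of 10.34 ± 0.07 and a mutant mean of 10.13 ± 0.28 (SD, n = 3), and Snrpb, whose transcript also gives the SmB' form, was at 8.34 ± 0.09 and 8.17 ± 0.36. Their differences were −0.05 for Snrpg and −0.01 for Snrpb without mutant replicate 2. Groups overlapped for each of these genes. Of the particle-specific genes, Snrpa1, the U2 A' protein, was at 8.81, 8.78 and 8.83 in controls and 8.80, 7.95 and 8.50 in mutants, a difference of −0.39 ± 0.21 that was −0.16 without mutant replicate 2. The U1 gene Snrpc differed by −0.08 ± 0.17 and the U2 gene Snrpb2 by −0.01 ± 0.14.

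SF3 proteins belong to the U2 particle and hold it at the branch point. Of 9 tested genes 8 had a lower mutant mean and 0 separated the groups. Sf3b1, the large subunit that is recurrently mutated in blood malignancies, was at 9.87, 10.09 and 10.12 in controls and at 9.88, 9.27 and 9.63 in mutants. Mutant replicate 1 exceeded control replicate 1, and the difference was −0.43 ± 0.17 (adjusted p = 0.594 in limma). Sf3b5, a small subunit of the same complex, was at 8.84, 8.72 and 8.83 against 8.75, 7.92 and 8.27, a difference of −0.49 ± 0.20. Without mutant replicate 2 these differences were −0.27 and −0.29.

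Sf3b6, which contacts the branch-point adenosine, again turned on a single array, at 8.77, 8.53 and 8.77 in controls and 8.85, 7.20 and 8.64 in mutants (−0.46 ± 0.39, and 0.06 without mutant replicate 2). Sf3a2 was one of 7 tested splicing genes that were above their control mean on that array, at 8.99 there against 8.60 to 8.69 in controls and 8.44 and 8.39 in the other mutants (difference −0.23 without that array). Sf3a3 differed by −0.20 ± 0.15, Sf3b2 by −0.07 ± 0.20 and Sf3b4, the only gene of the family with a higher mutant mean, by 0.00 ± 0.24. These 3 differences were −0.11, 0.16 and 0.26 without mutant replicate 2.

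PRPF proteins carry the U4/U6.U5 particle and its rearrangements. Of 12 tested genes 10 had a lower mutant mean (83.3%, against 57.5% of all genes and 84.1% of the bright ones). The groups were separated by 4 of the 12, Prpf39, Prpf4, Prpf18 and Prpf31 (33.3%, against 9.99% of all genes and 16.9% of the bright ones). Prpf39, which works with the U1 particle, was at 7.79, 7.87 and 7.88 in controls and 7.69, 6.76 and 7.48 in mutants, a difference of −0.54 ± 0.23 that was −0.26 without mutant replicate 2. Prpf4, a U4/U6 protein, was at 6.95, 7.15 and 7.18 against 6.85, 6.88 and 6.69. Its difference of −0.29 ± 0.12 did not rest on mutant replicate 2, without which it was −0.32. Prpf18, which acts in the second step of splicing, was likewise at 6.27, 6.45 and 6.26 against 6.20, 6.10 and 6.03 (−0.21 ± 0.12).

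The kinase gene Prpf4b was at 8.22, 8.36 and 8.42 in controls and 8.26, 7.69 and 8.02 in mutants (−0.35 ± 0.16, and −0.20 without mutant replicate 2). Prpf8, the scaffold of the catalytic centre and the brightest of the family, was at 9.66 to 9.69 in controls and at 9.70, 9.44 and 9.44 in mutants, a difference of −0.14 ± 0.12. Prpf19, a ubiquitin ligase of the activated spliceosome, had 7.51, 7.51 and 7.52 in controls but 7.44, 7.93 and 7.25 in mutants, with mutant replicates 2 and 3 on opposite sides of the controls, and its difference was −0.17 without mutant replicate 2. Prpf40b had the highest difference of the family, 0.06 ± 0.11, and was dim (5.13 ± 0.09 in controls, SD, n = 3), and its difference was 0.10 without mutant replicate 2. Adjusted p-values in limma were 0.594 to 0.958 for the family.

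LSM proteins form the ring on U6 RNA (Lsm2 to Lsm8) and a related cytoplasmic ring in which Lsm1 takes the place of Lsm8 and helps to remove the cap of messenger RNA. The 7 genes of the U6 ring all had a lower mutant mean, and all 7 lay below genes of like brightness (median −0.63, and −0.42 relative to like brightness). Only Lsm5 separated the groups, at 8.78, 8.93 and 9.02 in controls and 8.71, 6.65 and 8.57 in mutants, a difference of −0.93 ± 0.48. Lsm8, the subunit that keeps the ring in the nucleus, was at 7.73, 7.83 and 7.80 against 7.95, 5.63 and 7.25 (−0.85 ± 0.50). Without mutant replicate 2 these were −0.27 and −0.19, and the ring's median was −0.25 and −0.16 relative to like brightness.

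Lsm4 was low on both mutant replicates 2 and 3, at 6.83 and 6.85 against 7.67 to 8.01 in controls, and mutant replicate 1 was at 7.78 (difference −0.71 ± 0.26, and −0.55 without mutant replicate 2). Lsm7 was at 10.34, 10.34 and 10.27 in controls and 10.27, 8.99 and 9.80 in mutants (−0.63 ± 0.29, and −0.28 without mutant replicate 2). The other probe set of Lsm7 was at 10.24, 10.30 and 10.20 against 10.20, 8.89 and 10.16, so on mutant replicate 3 it was only slightly below its controls. Lsm2 was at 9.19, 9.31 and 9.52 against 9.19, 8.99 and 8.98 (−0.29 ± 0.13). Each of these subunits was below all of its controls on 2 mutant arrays. Lsm3 and Lsm6 were far below their controls on 1 array only: Lsm3 was at 8.67 on mutant replicate 2 and at 10.06 and 10.03 on the other mutants, above its controls (9.89 to 9.96), and Lsm6 was at 7.74, with 9.12 and 8.90 on the other mutants and 8.93 to 9.08 in controls. The differences of Lsm3 and Lsm6 were 0.13 and −0.02 without that array.

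**Figure D4:**
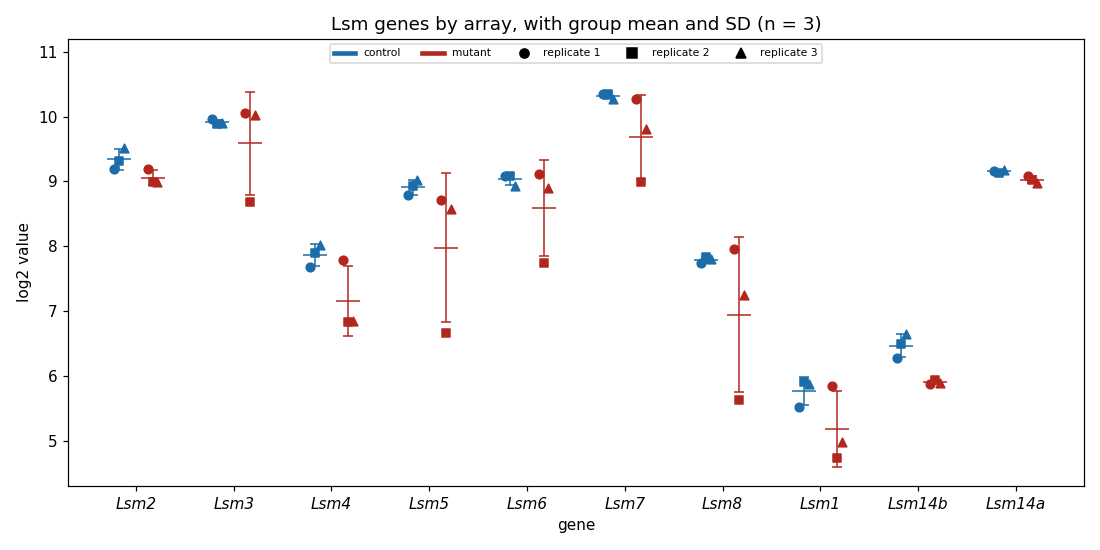
Log2 values of the 7 genes of the U6 Lsm ring and of Lsm1, Lsm14b and Lsm14a on each array (circle, square and triangle for replicates 1, 2 and 3; blue control, red mutant), with group means and SD as bars (n = 3). The mutant square lies well under the other 5 points in Lsm3, Lsm5, Lsm6 and Lsm8, whereas the 3 mutant points of Lsm14b lie together at 5.88 to 5.94, under all controls.

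Lsm14b, outside the nuclear ring, had the lowest p of the 71 genes. It encodes a protein of cytoplasmic RNA granules that represses translation, not a spliceosome part. It was at 6.27, 6.49 and 6.64 in controls and at 5.88, 5.94 and 5.89 in mutants. The groups did not overlap and the 3 mutant values lay close together (difference −0.56 ± 0.13, unadjusted p = 0.00237, adjusted p = 0.594 in limma). Its difference was −0.58 without mutant replicate 2. The related Lsm14a also separated the groups, by less, at 9.15, 9.14 and 9.18 against 9.08, 9.02 and 8.97 (−0.13 ± 0.11).

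Lsm1, the decay-ring subunit, was at 5.52, 5.91 and 5.87 in controls and 5.84, 4.73 and 4.98 in mutants, a difference of −0.58 ± 0.28 in a dim gene, and −0.35 without mutant replicate 2. Lsm10 and Lsm11 sit on the U7 particle that trims histone messengers, and they differed by −0.40 ± 0.21 and 0.05 ± 0.11. Lsm12 was at −0.24 ± 0.17. Lsmem1, taken in by its prefix alone, was at 0.18 ± 0.16, and without it the median of the Lsm family was −0.44 (an alternative chosen after seeing the data). Adjusted p-values in the Lsm family were 0.594 to 0.881 in limma.

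SR proteins bind exonic enhancers through an RNA recognition motif and recruit the U1 and U2 particles through an arginine- and serine-rich tail. All 9 tested Srsf genes had a lower mutant mean, and only Srsf9 separated the groups. Srsf9 was at 8.39, 8.73 and 8.47 in controls and 8.06, 7.41 and 8.29 in mutants, a difference of −0.61 ± 0.23 that was −0.35 without mutant replicate 2. Srsf10, a repressor of splicing when it is dephosphorylated, was at 8.02, 8.18 and 8.31 against 8.17, 7.14 and 7.61 (−0.53 ± 0.24, and −0.28 without that array). Srsf5 was at 10.09, 10.19 and 10.10 against 10.11, 9.63 and 9.80 (−0.28 ± 0.15, and −0.17 without it). In each of the latter 2 genes mutant replicate 1 lay within the controls.

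Srsf1, the founding member of the family, had another order: it was lowest on mutant replicate 3 (7.51), with mutant replicates 1 and 2 at 8.16 and 8.34 among the controls (8.08, 8.66 and 8.37), for a difference of −0.37 ± 0.24. Srsf3, the smallest SR protein, was at 8.86, 9.16 and 9.27 against 9.05, 8.04 and 8.94 (−0.42 ± 0.27, and −0.10 without mutant replicate 2). Srsf6 was at 9.23, 9.06 and 9.25 against 9.26, 7.35 and 9.20, again by 1 array (−0.58 ± 0.46, and 0.05 without mutant replicate 2). A dimmer probe set of Srsf6 was low on mutant replicates 2 and 3, at 8.68, 8.73 and 8.94 against 8.84, 8.02 and 8.32. Srsf2, which like Sf3b1 is recurrently mutated in myeloid disease, was the brightest, with a control mean of 10.31 ± 0.12 and a mutant mean of 10.21 ± 0.31 (SD, n = 3), and its difference was 0.05 without mutant replicate 2. Srsf4 differed by −0.09 ± 0.18 and Srsf11 by −0.10 ± 0.12. Adjusted p-values in limma were 0.594 to 0.843.

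Proteins of the hnRNP group coat nascent RNA and often block splice sites. Of 18 tested genes 16 had a lower mutant mean, and 7 separated the groups (38.9%, against 9.99% of all genes and 16.9% of the bright ones), while 10 of the 18 lay above genes of like brightness. The 7 were Hnrnpr, Hnrnph1, Hnrnpdl, Hnrnpc, Hnrnpf, Hnrnpa2b1 and Hnrnpk, each on the brightest probe set of the gene. On the other probe sets of Hnrnpf the groups overlapped, as they did on the dimmest of Hnrnpk. Hnrnpr, a messenger-binding protein close to Syncrip, was at 7.78, 7.76 and 7.69 in controls and 7.51, 7.17 and 7.52 in mutants, a difference of −0.34 ± 0.13 and of −0.23 without mutant replicate 2. Hnrnph1, which binds runs of G, was at 9.02, 9.23 and 9.19 against 9.02, 8.36 and 8.80 (−0.42 ± 0.18, and −0.24 without mutant replicate 2), and its groups were parted by less than the second decimal.

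Hnrnpdl was at 10.12, 10.20 and 10.22 against 10.06, 9.59 and 9.89 (−0.33 ± 0.14). Hnrnpc, which binds runs of U and covers cryptic exons, was at 9.77, 9.69 and 9.76 against 9.59, 9.22 and 9.59 (−0.27 ± 0.14). In the brightest of the group the 3 control values were nearly equal, so small offsets sufficed to part the groups: Hnrnpk, a poly-C binder, was at 11.63, 11.61 and 11.69 against 11.58, 11.32 and 11.59, and Hnrnpf was at 11.57, 11.60 and 11.61 against 11.56, 10.67 and 11.55. Without mutant replicate 2 the differences of Hnrnpdl, Hnrnpc, Hnrnpk and Hnrnpf were −0.20, −0.15, −0.06 and −0.04.

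Both hnRNP genes with a higher mutant mean bear on CD45 splicing. Hnrnpll, which is induced in activated lymphocytes and drives CD45 exon skipping, was at 6.28, 5.66 and 5.87 in controls and 6.32, 5.90 and 6.30 in mutants (0.24 ± 0.19, and 0.38 without mutant replicate 2). Control replicate 1 lay with the mutants, and groups overlapped. Hnrnpl was at 8.63, 8.88 and 8.80 against 8.74, 9.19 and 8.74 (0.12 ± 0.16), with its highest value on mutant replicate 2 and a difference of −0.03 without it. Hnrnph2 was at 9.01, 8.78 and 8.88 against 8.80, 6.92 and 9.17 (−0.59 ± 0.51, and 0.09 without mutant replicate 2). A dimmer probe set of Hnrnph2 parted the groups, at 7.13, 7.18 and 7.20 against 6.83, 6.74 and 7.04 (difference −0.30). Adjusted p-values in limma for the probe sets used in the Hnrnp family were 0.594 to 0.88.

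There were 12 splicing genes with more than 1 probe set of their own, and the probe sets of a gene did not always lie together on mutant replicate 2. The probe sets of Lsm7 were at −1.32 and −1.36 relative to their control means, and those of Hnrnpk at −0.32, −0.31 and −0.63. Sf3b2 was at −0.53 on the brighter probe set and at 0.40 on the other, and Hnrnpd was at −0.15 and 0.77. Hnrnpf was at −0.92, −0.86 and −0.97 on its 3 brightest probe sets and at 0.12 and 0.33 on the dimmer ones, and Hnrnpu was at −0.21 and −1.33. For Srsf1 the mutant minus control difference was −0.88 on the dimmer probe set against −0.37 on the one used. Many hnRNP and Sm genes have processed copies elsewhere in the genome, and whether a probe set reads such a copy was not tested.

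**Figure D5:**
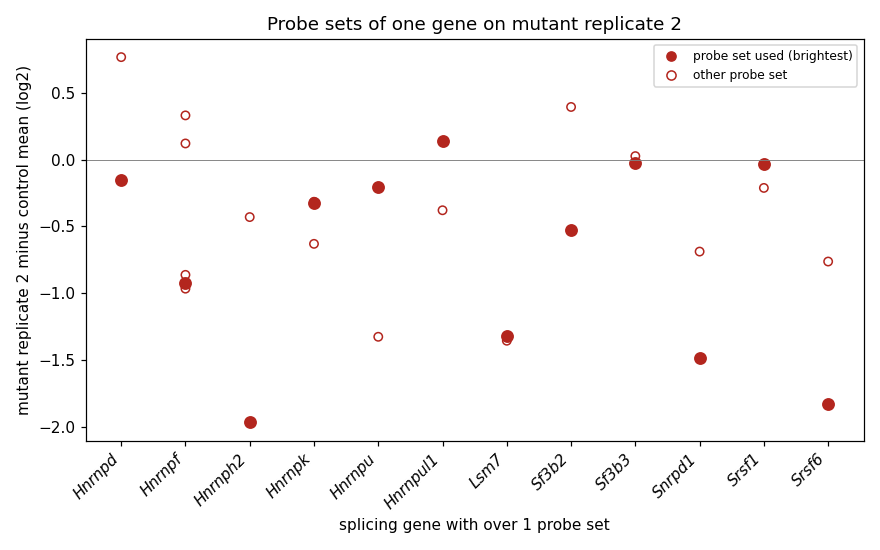
Log2 value on mutant replicate 2 minus the control mean for each probe set of the 12 splicing genes that have more than 1 (filled, the brightest probe set, which represents the gene; open, the others). Probe sets of Lsm7 coincide near −1.3, while those of Sf3b2 and Hnrnpd lie on both sides of 0.

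Gene span, from the RefSeq table, varied with the values on mutant replicate 2 among splicing genes. The 24 shortest genes (734 to 8925 bases) had a median of −0.78 there, the next 23 genes −0.38 and the 24 longest (18658 to 54343 bases) −0.22. Across the 71 genes, Spearman's rho of span and value was 0.40 on mutant replicate 2, 0.07 on mutant replicate 1 and 0.03 on mutant replicate 3. On the control arrays it was 0.03, 0.14 and −0.21. Over 3309 genes of the brightest groups rho was −0.14, 0.13 and 0.05 on controls and −0.12, 0.10 and −0.02 on mutants (genes share arrays and brightness and are not independent). Genes with the ETS letters in their promoter window had a median difference of −0.12 (19 genes) and those without −0.31 (42 genes), or 0.09 and −0.12 relative to like brightness. The letters were in 6 of 7 Sf3 and 4 of 7 Snrp windows, but in 1 of 11 Lsm and 2 of 16 Hnrnp windows. Genes with and without them thus also differed in family, and the difference was not tested.

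Other splicing genes, from lists of the rest of the pathway, also had mostly lower mutant means, and none passed the test (adjusted p-values in limma were 0.594 or higher in each list). By list, 66.7% to 100% of genes had a lower mutant mean. Among all genes tested 57.5% did so, and in the brightest 5 groups 84.1%. Of 33 tested genes of other particle proteins 25 were lower in mutants (median −0.19, and −0.14 without mutant replicate 2). The minor spliceosome gene Rnpc3 was at 7.22, 7.40 and 7.38 in controls and 7.06, 6.61 and 6.94 in mutants, and the tri-snRNP genes Ddx23 and Sart1 differed by −0.40 ± 0.13 and −0.33 ± 0.13. U2af1, which reads the 3' splice site, was at 9.13, 8.96 and 8.96 against 8.78, 9.54 and 8.75, a difference of −0.25 without mutant replicate 2. Of 35 genes of the catalytic complexes 29 were lower (median −0.16), among them the cyclophilin genes Ppil1, at 5.43, 5.54 and 5.59 against 5.07, 4.89 and 4.86, and Ppie (−0.57 ± 0.20), with Bud31 at −0.71 ± 0.24 (−0.46 without mutant replicate 2). Without that array the median of the catalytic list was −0.06.

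All 11 tested kinase, importer and Tra2 genes around SR proteins had a lower mutant mean (median −0.31, and −0.10 without mutant replicate 2). Clk4, a kinase of SR proteins, was at 8.88, 8.93 and 8.95 against 8.85, 7.65 and 8.42, Srpk3 differed by −0.40 ± 0.15 and the SR importer gene Tnpo3 by −0.41 ± 0.19, and without that array Clk4 was at −0.29 and Tnpo3 at −0.20. Of 14 hnRNP-type genes under other symbols 13 were lower (median −0.24, and −0.26 without mutant replicate 2). Among them were Tardbp, at 9.35, 9.69 and 9.66 against 9.10, 9.25 and 9.25, Ewsr1 (−0.38 ± 0.13) and Rbmx (−0.43 ± 0.16). Of 26 other regulators 20 were lower (median −0.17, and −0.16 without mutant replicate 2), including Rbm4b (−0.60 ± 0.19), Tia1 (−0.66 ± 0.22) and Fubp1 (−0.30 ± 0.12).

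Of 17 exon junction and export genes 14 were lower (median −0.14, and −0.07 without mutant replicate 2), with Pnn at −0.41 ± 0.15 and Thoc7 at −0.71 ± 0.44 (−0.13 without that array), and with the export adaptor gene Alyref2 on the other side, at 6.43, 6.35 and 6.46 against 6.77, 6.74 and 6.83. All mutant values of Alyref2 exceeded all of its controls (0.36 ± 0.11, adjusted p = 0.594 in limma). Of 18 genes that assemble small nuclear particles 12 were lower (median −0.17, and −0.07 without mutant replicate 2), and Gemin6, a partner of the SMN protein in loading the Sm ring, was at 7.66, 7.55 and 7.69 against 7.46, 4.79 and 7.36 (−1.09 ± 0.63, and −0.22 without mutant replicate 2). Ddx20 (−0.37 ± 0.20) and Clns1a (−0.53 ± 0.29, and −0.19 without that array) belong to the same list. Relative to like brightness the medians of these 7 lists lay between −0.10, for the SR kinases, and 0.00.

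Proteasome genes (Psm, 46 tested) had a median difference of −0.29 and of −0.11 relative to like brightness, and cytosolic ribosomal protein genes (62 tested) of −0.20 and −0.09. On mutant replicate 2 the relative medians were −0.34 and −0.24, against −0.15 for the splicing genes and −0.88 for the U6 Lsm ring. These sets were not tested against each other.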

How the data were processed

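Each of 3 control and 3 mutant samples was run on 1 array. The deposited values are log2 signals per probe set, summarised by RMA per the submitters' processing notes. The RMA version, annotation and genome build are not stated in the labels. RMA gives no detection call, and the number of arrays limits the precision. Of 41345 probe sets 23521 carried 1 gene symbol (23328 matched a RefSeq gene of GRCm38.p6), 1814 several and 16010 none. For every gene the single-symbol probe set of highest mean over the 6 arrays was kept (22180 genes), and the lowest 40% by that mean were not tested, which left 13308. limma 3.58.1, run in R 4.3.3, compared the groups by its moderated test (2-sided), with p-values adjusted by Benjamini-Hochberg over all tested genes and standard errors from the same fit. The code was tested on simulated data. Genes of like brightness are those in the same 1 of 20 equal groups by mean level. Lists are described by counts and medians without a test.

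The members and lists were chosen with earlier results of these data known. Genes named by rule were, per family, the 4 of lowest p, the 2 brightest and the one of highest difference, a set of 10 chosen genes and U2af1, and the 3 of lowest p in each other splicing list. Lsm5, Lsm6, Lsm8, Lsm14a, Snrpe, Srsf6, Hnrnph2, Hnrnpl, Sf3a2 and Prpf19 were named after their values were seen, as were other genes given only by a difference, as parted groups or in the comparisons of probe sets, spans and promoter motifs. Alternatives were other filters, the mean of a gene's probe sets, other variance models, array weights, other normalizations, removal of the brightness trend, a replicate block, leaving out each array and, added after seeing the data, leaving out Lsmem1.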

Additional observations from a re-analysis of the deposited data

How the results depend on the processing

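Other filters, the mean of probe sets, other variance models and an adjusted p of 0.1 changed neither direction nor calls of the splicing genes as a whole, but the size of their difference followed the normalization. Array weights gave mutant replicate 3 a weight of 5.20 and mutant replicate 2 one of 0.21. They put 2960 of 13308 genes and 27 of 71 splicing genes past the threshold, against 0 with equal weights. After repeated quantile normalization, cyclic loess and removal of the brightness trend, in this order here and below, the median of splicing genes was −0.097, −0.062 and −0.076, and 9, 8 and 8 of them (12.7%, 11.3% and 11.3%) parted the groups, against 6.98%, 7.03% and 7.12% of all genes and 7.48%, 6.61% and 6.76% of bright ones. Medians were −0.13, −0.12 and −0.10 for Prpf, −0.18, −0.17 and −0.17 for Srsf and, with the sign turned, 0.027, 0.081 and 0.053 for Hnrnp, while Snrp was at 0.025 after loess and −0.0012 with the trend removed. The median of all genes tested turned to 0.00079, 0.00080 and 0.00067, and to 0.025 with no filter and 0.015 after centring on array medians. With the trend removed, the lists of catalytic complexes and of exon junction and export genes were at 0.0064 and 0.00097. Relative to like brightness, Hnrnp was at −0.013 with the mean of probe sets. The same 3 settings turned the sign of Snrpd3 (0.18, 0.23 and 0.20), Sf3b2 (0.12, 0.16 and 0.14), Sf3b4 (−0.030, −0.024 and −0.017), Sf3a2 (0.16, 0.17 and 0.16), Prpf8 (0.052, 0.084 and 0.065), Prpf40b (−0.016, −0.017 and −0.016), Srsf2 (0.060, 0.14 and 0.11), Srsf4 (0.086, 0.10 and 0.10), Hnrnpk (0.038, 0.097 and 0.062), Snrpb (0.0054, 0.028 and 0.022), Lsm14a (0.060, 0.087 and 0.075). Snrpg was at 0.025 after loess, and centring put Snrpd3 at 0.053 and Sf3a2 at 0.020. Array weights turned Sf3b2 (0.19), Lsm3 (0.075), Snrpb (0.14), Ddx20 (0.041), U2af1 (−0.21), Hnrnph2 (0.20), Hnrnpl (−0.039), Prpf19 (−0.23). The cause was not tested.

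Leaving out each array in turn gave 0 to 4 genes past the threshold (4 without mutant replicate 1, 1 without mutant replicate 2) and 0 splicing genes. It gave 16 to 45 splicing genes with parted groups, a count that can only stay or rise with fewer arrays. There were 45 without mutant replicate 1 (63.4%, against 27.6% of all and 50.9% of bright genes). Without control replicate 1 there were 29 (40.8%, against 19.3% and 33.2%), and without control replicate 3 there were 16 (22.5%, against 12.9% and 19.2%). The Srsf median ran from −0.51 to −0.10, and relative to like brightness Srsf ran from −0.31 to 0.0037, Sf3 from −0.041 to 0.075 and Snrp from −0.16 to 0.086. Signs of single genes turned over the ranges −1.03 to 0.093 for Hnrnph2, −0.027 to 0.19 for Hnrnpl, −0.56 to 0.13 for Lsm3, −0.17 to 0.17 for Prpf19, −0.23 to 0.069 for Sf3a2, −0.20 to 0.16 for Sf3b2, −0.22 to 0.26 for Sf3b4, −0.77 to 0.058 for Sf3b6, −0.065 to 0.031 for Snrpd3, −0.73 to 0.018 for Snrpe, −0.25 to 0.055 for Srsf2, −0.27 to 0.065 for Srsf4, −0.91 to 0.046 for Srsf6, −0.25 to 0.14 for U2af1. The fit with the replicate number as a block put 0 genes past the threshold and changed no call of a named gene. Deviations of same-numbered samples correlated at 0.13, 0.20 and −0.13, and not every sample correlated best with its own number. With 3 arrays per group these correlations cannot show whether same-numbered samples were paired, and the labels do not say.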
